A study of Mus musculus with 8 samples.

Results

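Transcript levels of the GATA factors and of the cofactors that bind them were followed through 4 progenitor populations of mouse bone marrow. The set holds 9 genes of the 22878 gene symbols in the deposited tables, chosen by name: Gata1, Gata2 and Gata3, the cofactor gene Zfpm1, the LIM-only genes Lmo2 and Lmo4, the adaptor gene Ldb1, and the bHLH genes Tal1 and Lyl1. All 9 were read in each of the 8 libraries. Each is given by its transcript with the largest mean read count, in RPKM, a read rate scaled by transcript length and by library total.

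The populations were sorted from C57BL/6 mice, with 2 libraries each, and the labels name no altered allele and no agent for any of them. PD-1+ cells, named in the labels as progenitors of non-LTi innate lymphoid cells (ILCs; LTi, lymphoid tissue inducer), were live, lineage-negative cells with CD127, integrin α4β7, Kit and PD-1 on their surface and without Flt3, ST2 or CCR6. CCR6+ cells, named as LTi progenitors, had the same gate except that they carried CCR6 and lacked PD-1. ChILP, the common helper-like innate lymphoid progenitor, had that gate with no choice by PD-1 or CCR6. CLP, the common lymphoid progenitor, were live, lineage-negative cells with CD127, Flt3, Sca1 and Kit and without integrin α4β7. ChILP and CLP were first enriched by removal of lineage-positive cells, whereas PD-1+ and CCR6+ cells were first captured on a magnetic column by integrin α4β7. The populations are thus defined by surface gates alone, and neither the age and sex of the mice nor the number of mice per library is given in the labels used here. The study set out to compare ChILP with CLP and PD-1+ with CCR6+ cells.

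GATA factors are zinc-finger proteins that bind the DNA word GATA and its neighbours. GATA3 is needed for T cells and for ILCs, GATA1 for red cells, platelets and mast cells, and GATA2 for blood stem and progenitor cells. FOG1, the protein of Zfpm1, binds the amino-terminal zinc finger of GATA1 and brings in the NuRD corepressor. In red cell precursors LMO2 bridges GATA1 to TAL1 and its E protein partner, and LDB1 holds such complexes together and pairs them across distant sites. LMO4 is a LIM-only protein that also binds LDB1, and LYL1 is a close relative of TAL1.

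Sequencing gave 7685191 to 13997891 reads in genes per library, and the 9 genes had between 64 and 14768 reads each. Whether a population's libraries came from separate mice is not stated in the labels, so each p-value reflects only how much these libraries differed, and that spread may be technical. Transcripts of the gate genes followed the labels for Flt3, with 5.10 to 10.4 RPKM in the 6 PD-1+, CCR6+ and ChILP libraries and 92.1 and 157 RPKM in CLP. Pdcd1, the gene of PD-1, stood at 181 and 36.3 RPKM in PD-1+ cells and at 0 and 1.10 RPKM in CCR6+ cells. Ccr6 stood at 0 and 8.11 RPKM in PD-1+ cells and at 84.2 and 23.6 RPKM in CCR6+ cells. PD-1+ replicate 2 thus had the lower Pdcd1 level and the higher Ccr6 level of its pair. It also lay closer to CCR6+ replicate 2 than to its own partner, with a chi-square per gene of 17.5 between these libraries and 76.3 between the PD-1+ libraries. This was not particular to it, since PD-1+ replicate 1 lay at 73.1 from CCR6+ replicate 1. Both ChILP libraries likewise lay closer to CLP replicate 1, at 40.2 and 43.1, than to each other, at 62.5. The fold changes of Gata3 and Lmo4 and the medians of the ILC gene lists in PD-1+ cells are given with and without PD-1+ replicate 2.

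Gata3 and Lmo4 had the widest ranges of the 9 genes over the libraries, and Gata1 is the relative of Gata3 with the highest level in CLP. Their start-site windows are shown here so that the letters can be read beside the levels. RefSeq (GRCm38.p6) gives 14 windows, from 250 bases before to 50 bases after a start, for 8 of the 9 genes. Capitals mark a GATA word (AGATAA or AGATAG or TGATAA or TGATAG) or an E-box (CAGCTG or CAGATG, words bound by TAL1 and LYL1 with an E protein), searched on both strands. The windows lie on the minus strand at chr2:9878551-9878850 for Gata3, chr3:144205206-144205505 for the most upstream start of Lmo4, and chrX:7967861-7968160 for Gata1.
Gata3 promoter: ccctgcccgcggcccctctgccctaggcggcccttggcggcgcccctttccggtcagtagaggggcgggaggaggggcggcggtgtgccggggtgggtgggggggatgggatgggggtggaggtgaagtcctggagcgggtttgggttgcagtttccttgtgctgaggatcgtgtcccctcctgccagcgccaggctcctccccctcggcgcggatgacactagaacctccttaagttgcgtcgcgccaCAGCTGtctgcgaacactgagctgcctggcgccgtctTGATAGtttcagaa
Lmo4 promoter: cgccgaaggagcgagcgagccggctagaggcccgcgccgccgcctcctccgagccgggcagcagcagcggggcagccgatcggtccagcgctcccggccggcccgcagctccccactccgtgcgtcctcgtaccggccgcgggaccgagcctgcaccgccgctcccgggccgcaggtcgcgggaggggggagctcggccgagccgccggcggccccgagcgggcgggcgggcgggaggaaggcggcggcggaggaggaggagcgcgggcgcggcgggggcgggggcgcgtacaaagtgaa
Gata1 promoter: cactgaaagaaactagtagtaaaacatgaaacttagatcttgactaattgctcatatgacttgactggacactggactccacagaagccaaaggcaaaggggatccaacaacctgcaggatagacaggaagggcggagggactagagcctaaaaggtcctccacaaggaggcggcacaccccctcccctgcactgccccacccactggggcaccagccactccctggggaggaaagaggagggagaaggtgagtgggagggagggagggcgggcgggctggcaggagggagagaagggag
The Gata3 window held CAGCTG from base -1 and TGATAG from base 37 after the start. None of the words stood in the Lmo4 window or in the Gata1 window. Of the 14 windows, 3 held a GATA word, and 29.8% of all 32851 windows in the table did. CAGCTG stood in 16.3% and CAGATG in 17.2% of all windows. The match in Gata3 is a description of these letters and is no evidence of binding.

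Of the GATA factors, Gata3 (NM_008091) varied most. It stood at 316 and 62.8 RPKM in PD-1+ cells, 10.8 and 12.0 RPKM in CCR6+ cells, 51.1 and 117 RPKM in ChILP and 1.86 and 2.74 RPKM in CLP. PD-1+ and ChILP libraries overlapped, each lay above both CCR6+ libraries, and CCR6+ lay above CLP. The CLP values rested on 64 and 129 reads, and the lower PD-1+ value was that of replicate 2. In a bulk library, fewer cells with a transcript and less of it per cell cannot be told apart.

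Gata1 (NM_008089), the factor of red cell and platelet precursors, was high in every library. Its levels were 66.7 and 51.7 RPKM in PD-1+ cells, 99.7 and 82.4 RPKM in CCR6+ cells, 159 and 113 RPKM in ChILP and 111 and 88.4 RPKM in CLP. ChILP was thus highest and PD-1+ lowest, while CCR6+ and CLP overlapped. Gata2 (NM_008090), the factor of early progenitors, kept the same order at lower levels. It had 18.6 and 19.9 RPKM in PD-1+ cells, 23.2 and 28.2 RPKM in CCR6+ cells, 45.5 and 33.2 RPKM in ChILP and 29.2 and 22.6 RPKM in CLP. Only CCR6+ and CLP overlapped for this gene as well.

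Zfpm1 (NM_009569), the FOG1 gene, was nearly level. It stood at 18.3 and 17.4 RPKM in PD-1+ cells, 19.0 and 15.0 RPKM in CCR6+ cells, 18.3 and 14.8 RPKM in ChILP and 16.2 and 14.1 RPKM in CLP. Highest and lowest library differed 1.35-fold, less than for any other of the 9 genes except Tal1. PD-1+ lay just above CLP, and every other pair of populations overlapped.

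The LIM-only genes took separate courses. Lmo4 (NM_010723) stood at 452 and 199 RPKM in PD-1+ cells, 65.3 and 86.4 RPKM in CCR6+ cells, 178 and 312 RPKM in ChILP and 38.7 and 40.7 RPKM in CLP. As with Gata3, PD-1+ overlapped ChILP, both lay above CCR6+, and CCR6+ lay above CLP. Lmo2 (NM_001142336), the bridge of the red cell complex, had 94.5 and 108 RPKM in PD-1+ cells, 164 and 123 RPKM in CCR6+ cells, 163 and 136 RPKM in ChILP and 140 and 160 RPKM in CLP. PD-1+ was lowest for Lmo2, and the other populations overlapped. Ldb1 (NM_001113408), the adaptor of both, stood at 28.8 and 10.4 RPKM in PD-1+ cells, 13.0 and 9.89 RPKM in CCR6+ cells, 13.5 and 17.9 RPKM in ChILP and 21.5 and 17.9 RPKM in CLP. PD-1+ replicate 1 was the highest of all libraries for Ldb1 and PD-1+ replicate 2 the second lowest, so that PD-1+ overlapped every other population.

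Lyl1 (NM_008535) was the more abundant of the bHLH genes. Its levels were 105 and 145 RPKM in PD-1+ cells, 157 and 167 RPKM in CCR6+ cells, 113 and 106 RPKM in ChILP and 171 and 207 RPKM in CLP. CLP was highest, CCR6+ next, and PD-1+ overlapped ChILP. Tal1 (NM_011527), the partner of LMO2 in red cell precursors, had 19.9 and 24.6 RPKM in PD-1+ cells, 25.4 and 23.0 RPKM in CCR6+ cells, 23.6 and 21.5 RPKM in ChILP and 22.2 and 22.3 RPKM in CLP. It was the flattest of the 9 genes, with a 1.28-fold range over the libraries. Gata3 and Lmo4 had ranges over 10-fold, and the other 7 genes had ranges of 1.28-fold to 3.07-fold.

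**Figure D1:**
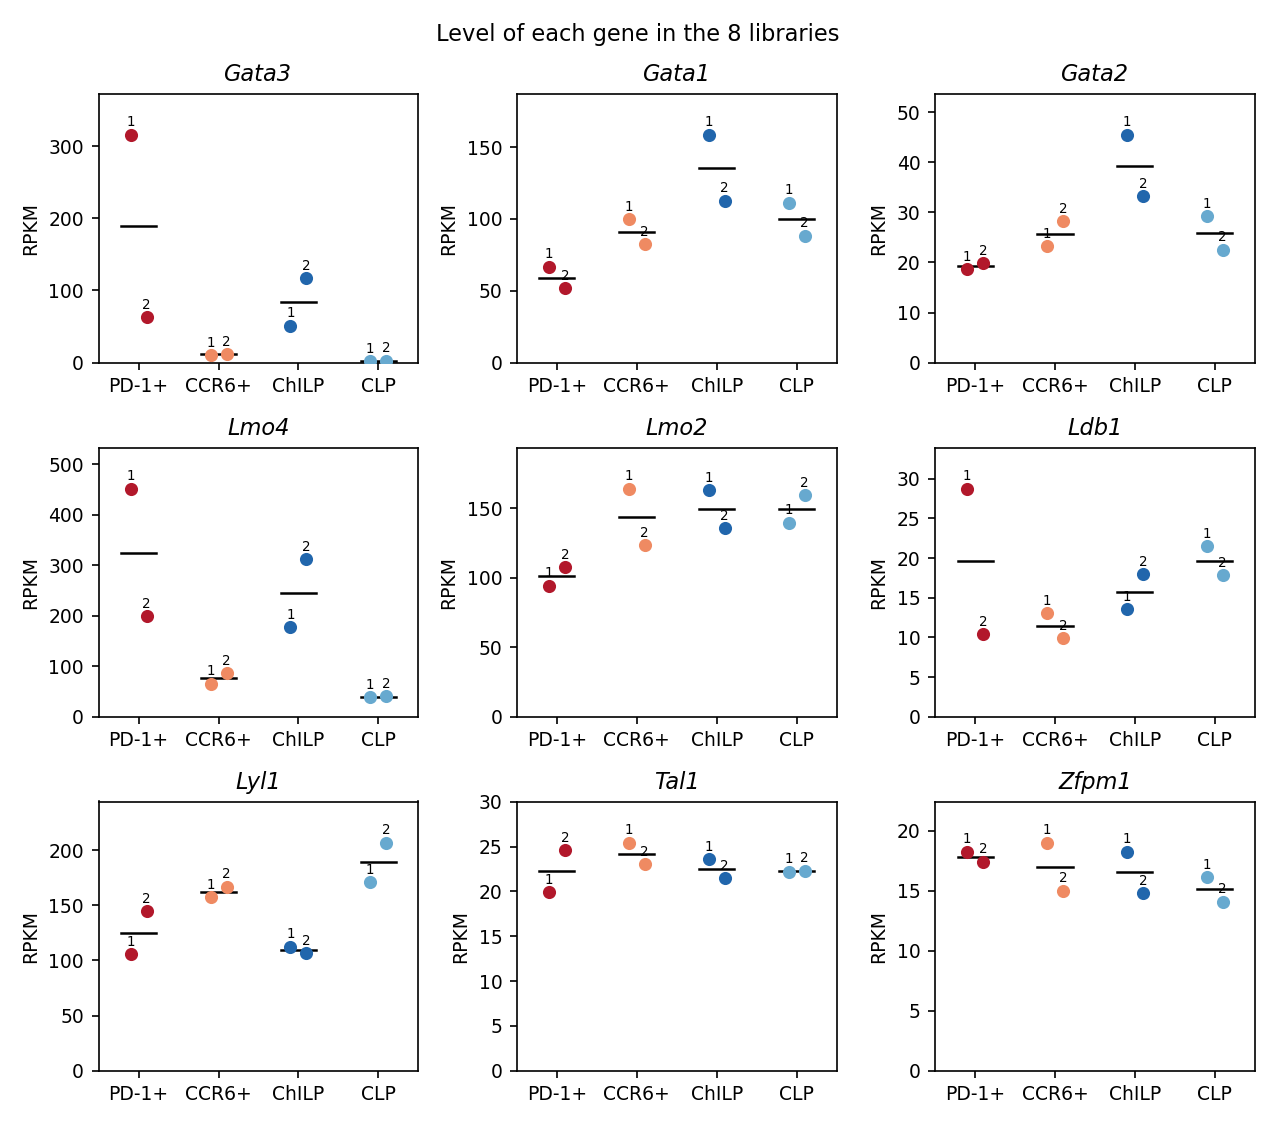
RPKM of each of the 9 genes, with 1 point per library (numbers 1 and 2 are the replicates) and a bar at the mean of each population, PD-1+, CCR6+, ChILP and CLP from left to right. Gata3 and Lmo4 are high in PD-1+ and ChILP and low in CLP, while Tal1 and Zfpm1 are nearly level.

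The make-up of the GATA transcript pool differed between the populations. Of the summed RPKM of Gata1, Gata2 and Gata3, Gata3 made up 78.7% and 46.7% in PD-1+ cells, 8.10% and 9.76% in CCR6+ cells, 20.0% and 44.5% in ChILP and 1.31% and 2.41% in CLP. Gata1 was the largest of these in CCR6+ cells, at 67.2% to 74.6%, and in CLP, at 77.7% to 78.2%. Gata3 exceeded Gata1 in both PD-1+ libraries, at ratios of 4.74 and 1.21, and in ChILP replicate 2, at 1.04, but not in ChILP replicate 1, at 0.322.

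The LIM-only pool was divided along the same populations. Lmo4 made up 82.7% and 64.8% of the summed Lmo2 and Lmo4 RPKM in PD-1+ cells, 28.4% and 41.2% in CCR6+ cells, 52.1% and 69.6% in ChILP and 21.7% and 20.3% in CLP. Lmo4 was thus the larger part in all 4 PD-1+ and ChILP libraries and the smaller part in all 4 CCR6+ and CLP libraries. Set against their shared partner Ldb1, the ratio of Lmo4 to Ldb1 was 15.7 and 19.1 in PD-1+ cells, 5.01 and 8.75 in CCR6+ cells, 13.2 and 17.4 in ChILP and 1.80 and 2.28 in CLP. This ratio was closer between the PD-1+ libraries than the level of either gene, since Ldb1 and Lmo4 were both lower in replicate 2. The ratio of Lyl1 to Tal1 was 5.29 and 5.88 in PD-1+ cells, 6.19 and 7.25 in CCR6+ cells, 4.77 and 4.96 in ChILP and 7.69 and 9.27 in CLP. These are shares and ratios of transcript levels and say nothing of protein or of complexes.

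**Figure D2:**
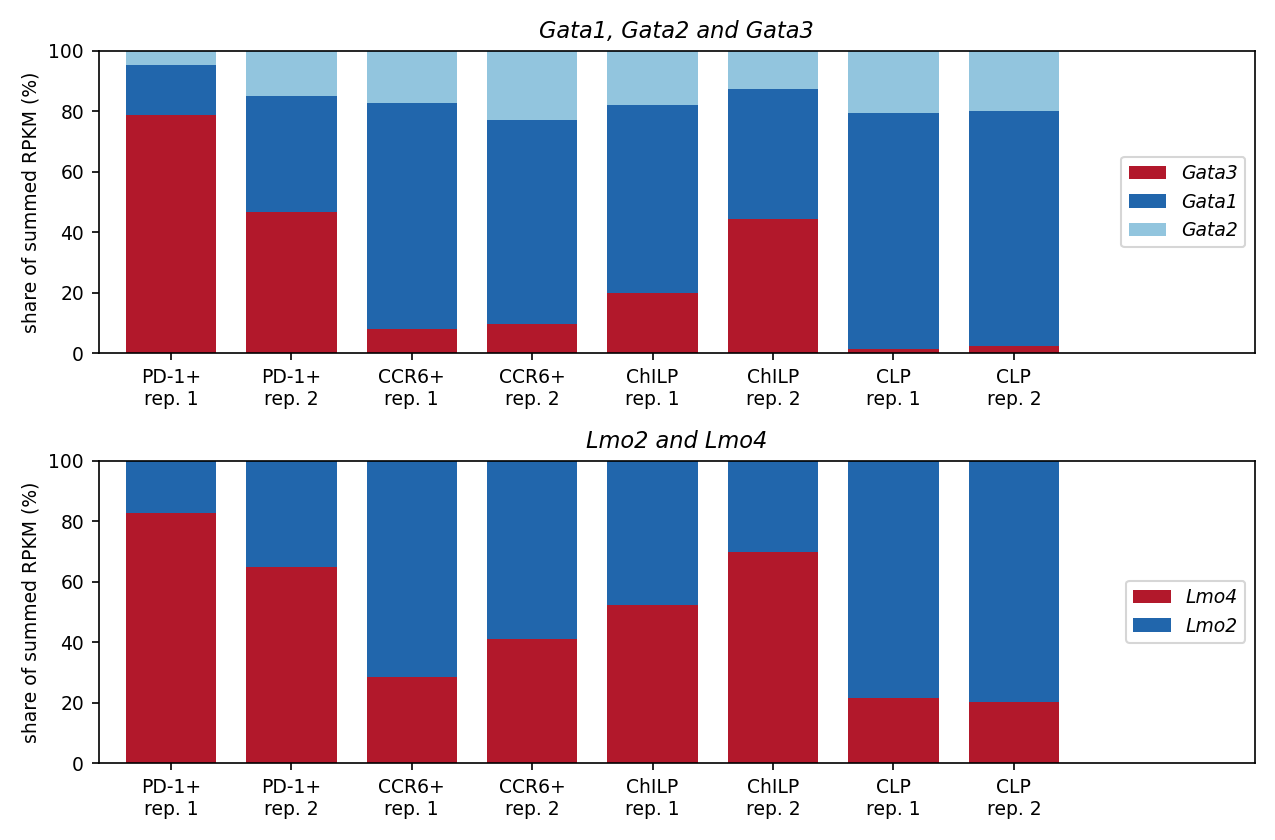
Share of the summed RPKM, in percent, of Gata1, Gata2 and Gata3 (upper plot) and of Lmo2 and Lmo4 (lower plot), with 1 stacked bar per library. Gata3 makes up 46.7% to 78.7% in PD-1+ cells and 1.31% to 2.41% in CLP, and Lmo4 is the larger part in PD-1+ and ChILP and the smaller part in CCR6+ and CLP.

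In ChILP against CLP, the step into the ILC lineage, the mean level was 36.6-fold higher for Gata3 and 6.17-fold higher for Lmo4, with no overlap between libraries. The other 7 genes lay at 0.580 to 1.52 of the mean CLP level, with Gata1 and Gata2 higher and Lyl1 lower without overlap. By the quasi-likelihood test of edgeR, adjusted over 13619 genes after Benjamini and Hochberg, none of the 9 was called at an adjusted p under 0.05, where 3 genes in all, 0.022%, were. Gata3 had a log2 fold change of 5.25 ± 0.77 (SE) and an adjusted p of 0.0815 by edgeR. Lmo4 had a log2 fold change of 2.68 ± 0.40 (SE) and an adjusted p of 0.0826 by edgeR. Both were higher in 2 of 2 ChILP libraries than in either CLP library.

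At an unadjusted p under 0.05 in this comparison, Gata3, Lmo4 and Gata2 were higher and Lyl1 was lower, 4 of 9 genes, where 5.82% of all genes had such a p, 2.79% higher and 3.03% lower. Without overlap between libraries, 4 of the 9 were higher and 1 was lower, where 35.6% of all genes did not overlap, 17.0% higher and 18.6% lower. Gata2 had a log2 fold change of 0.65, an edgeR 95% interval of 0.05 to 1.24 and an adjusted p of 0.808. Lyl1 had -0.73, with an interval of -1.23 to -0.22 and an edgeR adjusted p of 0.500. Zfpm1 had 0.18, with an interval of -0.38 to 0.74, and Tal1 had 0.07, with an interval of -0.41 to 0.55. Lmo2, at 0.06, and Ldb1, at -0.28, overlapped between ChILP and CLP.

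The call depended on the tool and on the libraries in the fit. DESeq2's Wald test called 263 genes (1.93%) in ChILP against CLP, with Gata3 at an adjusted p of 9.34e-16 and Lmo4 at 1.46e-09 and no other of the 9. With the fit restricted to the ChILP and CLP libraries, edgeR called 59 genes, with Gata3 at an adjusted p of 0.0287 and Lmo4 at 0.0377. Both were also called when ChILP replicate 1 or either PD-1+ library was left out of the fit, at edgeR adjusted p-values of 0.0117 to 0.0426 for Gata3 and 0.0209 to 0.0426 for Lmo4.

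PD-1+ against CCR6+ cells, the split between the non-LTi and LTi branches, showed Gata3 at 16.6-fold and Lmo4 at 4.29-fold the mean CCR6+ level. Gata1, Gata2, Lmo2 and Lyl1 were lower in both PD-1+ libraries than in either CCR6+ library, at 0.650 to 0.771 of the mean CCR6+ level. By edgeR none of the 9 was called, nor any gene in all (0%), the lowest adjusted p of any gene being 0.331. At an unadjusted p under 0.05, edgeR put Gata3 and Lmo4 higher and Gata1 and Lmo2 lower, 4 of 9 genes, where 801 of all genes (5.88%) had such a p, 4.08% higher and 1.81% lower. Without overlap, 2 of the 9 were higher and 4 lower, where 33.2% of all genes did not overlap, 19.0% higher and 14.2% lower.

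Gata3 had a log2 fold change of 3.95 ± 0.72 (SE) in PD-1+ against CCR6+ and an adjusted p of 0.359 by edgeR. Lmo4 had 2.01 ± 0.39 (SE) and an adjusted p of 0.443 by edgeR. Gata1 had -0.69, with an edgeR 95% interval of -1.27 to -0.11, and Lmo2 had -0.57, with an interval of -1.07 to -0.06. Gata2, at -0.47, and Lyl1, at -0.42, had intervals that reached above 0. Zfpm1, at 0.01 with an interval of -0.55 to 0.57, and Tal1, at -0.18 with an interval of -0.66 to 0.31, overlapped between the branches.

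Without PD-1+ replicate 2, the library with the lower Pdcd1 level, edgeR called 36 genes in PD-1+ against CCR6+, with Gata3 at 4.66 and an adjusted p of 0.0305 and Lmo4 at 2.44 and an adjusted p of 0.0452. Without PD-1+ replicate 1 the log2 fold change was 2.45 for Gata3 and 1.37 for Lmo4, with edgeR adjusted p-values of 0.584 and 1. Ldb1 had 0.68 with all libraries and -0.15 without PD-1+ replicate 1. DESeq2 called 128 genes (0.94%) with all libraries, with Gata3 at an adjusted p of 2.75e-08 and Lmo4 at 8.62e-05 and no other of the 9.

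**Figure D3:**
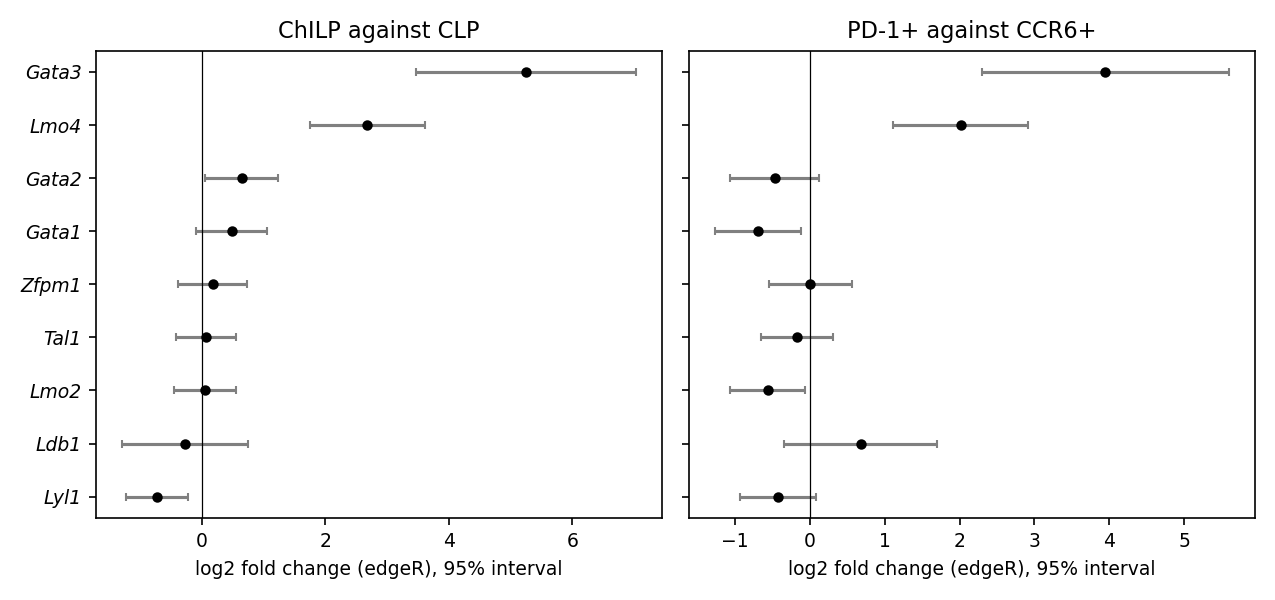
Log2 fold change of each of the 9 genes by edgeR with its 95% interval, ChILP against CLP on the left and PD-1+ against CCR6+ on the right; values right of 0 are higher in ChILP or in PD-1+ cells. Gata3 and Lmo4 lie furthest right in both plots, at 5.25 and 2.68 on the left and at 3.95 and 2.01 on the right.

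Against CLP, Gata3 rose in both branches and Lmo4 rose in PD-1+ cells. These comparisons share the CLP libraries with each other and with ChILP against CLP, and the route of enrichment and the population cannot be told apart in them. In PD-1+ against CLP edgeR called 2 of the 9 genes, both higher, where 997 of all genes (7.32%) were called, 4.48% of all genes as higher. Gata3 had a log2 fold change of 6.59 ± 0.82 (SE) and Lmo4 of 3.28 ± 0.41 (SE), each with an edgeR adjusted p of 0.0106. Without PD-1+ replicate 2 they had 7.30 and 3.71, with edgeR adjusted p-values of 0.00224 and 0.00669. In CCR6+ against CLP edgeR called 1 of the 9, where 1549 of all genes (11.4%) were called, 6.59% of all genes as higher. Gata3 had 2.64 ± 0.70 (SE) with an adjusted p of 0.0488, and Lmo4 had 1.27 ± 0.39 (SE) with an adjusted p of 0.0725.

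Without overlap between libraries, 3 of the 9 were higher and 4 lower in PD-1+ against CLP, where 57.3% of all genes did not overlap, 18.6% higher and 38.7% lower. In CCR6+ against CLP 3 of the 9 were higher and 2 lower without overlap, where 65.5% of all genes did not overlap, 19.8% higher and 45.7% lower. DESeq2 called Gata3 and Lmo4 in both branches and no other of the 9, where it called 16.9% of all genes in PD-1+ and 20.2% in CCR6+ against CLP.

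Both PD-1+ calls ended without CLP replicate 2, where edgeR called 8 genes in all and gave Gata3 and Lmo4 an adjusted p of 0.0817 each. The CCR6+ call of Gata3 ended when any CCR6+ or CLP library was left out, with edgeR adjusted p-values of 0.115 to 0.186. Lmo4 in CCR6+ against CLP was called when PD-1+ replicate 1 or replicate 2 was left out of the fit, at edgeR adjusted p-values of 0.0262 and 0.0283. None of the other 7 genes was called in either branch. Zfpm1 had log2 fold changes of 0.50 in PD-1+ and 0.50 in CCR6+ against CLP, and Tal1 had 0.28 and 0.46, after the scaling of library sizes by TMM. Without that scaling, on the log2(RPKM + 1) scale, the median of all genes shifted by -0.24 in PD-1+ and by -0.26 in CCR6+ against CLP, and Ldb1 and Tal1 in PD-1+ cells and Gata1, Gata2, Lmo2 and Lyl1 in CCR6+ cells turned from above to below 0.

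The relatives of the 9 genes were mostly silent. Gata4, Gata5 and Gata6, the GATA factors of heart, gut and other non-blood tissues, had no read in any library, where 3 reads would have given Gata4 at most 0.0827 RPKM. Lmo3 and the neural bHLH gene Nhlh2 had no read either. Zfpm2, the FOG2 gene, had 3 reads in all, and Nhlh1 had 3. Ldb2, the relative of Ldb1, had 25 reads in 3 libraries and never exceeded 0.288 RPKM. Tal2 had 22 reads, all in the CCR6+ libraries, at 1.64 and 0.12 RPKM. Lmo1 was the exception, with 4.43 to 16.0 RPKM over the 8 libraries. It overlapped between ChILP, at 16.0 and 9.32 RPKM, and CLP, at 11.0 and 9.51 RPKM.

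The genes nearest to Gata3 by pattern were led by Rora. Over the 8 libraries, each gene's log2(RPKM + 1) was centred on its own mean, and the root-mean-square difference from Gata3 was taken for the 5912 genes of at least 10 mean RPKM. The smallest differences were 0.42 for Rora, 0.49 for Tox2, 0.53 for Tcf7, 0.67 for Arg1 and 0.76 for Thy1, against a spread of Gata3 itself of 2.26. Rora, a nuclear receptor gene needed for ILC2, stood at 307 and 73.7 RPKM in PD-1+ cells, 24.6 and 10.7 RPKM in CCR6+ cells, 76.7 and 165 RPKM in ChILP and 3.18 and 2.24 RPKM in CLP. PD-1+ replicate 1 and ChILP replicate 2 were thus highest for Rora, as for Gata3.

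For Lmo4 the smallest differences were 0.42 for Ctsw, 0.43 for Thy1, 0.45 for Rab19, 0.45 for Tox and 0.46 for Bcl2, against its own spread of 1.24. Ctsw, a protease gene of cytotoxic lymphocytes, stood at 116 and 36.6 RPKM in PD-1+ cells, 18.5 and 25.1 RPKM in CCR6+ cells, 28.7 and 51.7 RPKM in ChILP and 8.12 and 15.6 RPKM in CLP. Thy1, a surface marker of T cells and ILCs, was near both Gata3 and Lmo4. Gata3 and Lmo4 differed by 1.03 from each other, since Gata3 had the wider range. The Pearson correlation of their log2(RPKM + 1) over the 8 libraries was 0.995. Between the 9 genes the smallest differences were 0.15 for Zfpm1 and Tal1 and 0.22 for Gata1 and Gata2. Zfpm1 and Tal1, both nearly level, had own spreads of only 0.14 and 0.10, while Gata1 and Gata2 had 0.46 and 0.38. The genes nearest to Gata1 were Ifrd1 at 0.18 and Ccne1 at 0.18, and those nearest to Gata2 were Slc35b1 at 0.13 and Vcl at 0.15. The libraries share their depth and scale across all genes, so these values describe likeness in these 8 libraries.

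**Figure D4:**
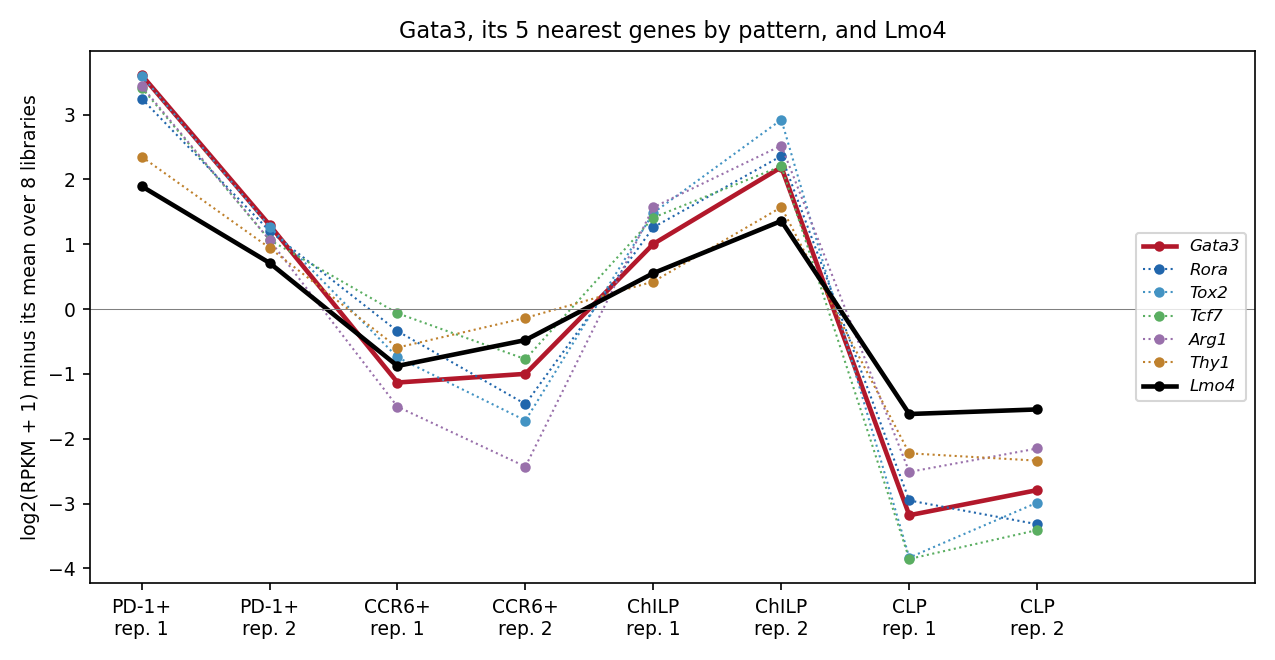
log2(RPKM + 1) minus its mean over the 8 libraries for Gata3 (red), the 5 genes nearest to it by root-mean-square difference (dotted) and Lmo4 (black), with 1 point per library. All lines are highest in PD-1+ replicate 1 and next in ChILP replicate 2. All have their lowest point in CLP, and the second lowest point of Arg1 is in CCR6+ replicate 2. Lmo4 has a narrower range than Gata3.

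A list of 14 ILC2 genes tied to GATA3 was read in part, and whether they depend on GATA3 in these cells was not tested. Of 14 such genes 12 passed the filter on low counts, and none was called in ChILP against CLP or in PD-1+ against CCR6+ by edgeR. Their median log2 fold change was 2.16 in ChILP against CLP, beside 0.05 over all genes, and 2.02 in PD-1+ against CCR6+, beside 0.01 over all genes. In PD-1+ against CLP 4 of the 12, Bcl11b, Ccr8, Rora and Rxrg, rose, where 4.48% of all genes did. In CCR6+ against CLP 3 of them, Bcl11b, Ccr8 and Rora, rose, where 6.59% of all genes did. Without PD-1+ replicate 2 the median in PD-1+ against CCR6+ was 2.84, beside -0.04 over all genes. In PD-1+ against CLP the median was 3.82 without that library and 3.32 with it. The list was not raised as a whole. Il1rl1, the gene of ST2, which the gate excludes, had log2 fold changes of -5.52 against CCR6+ and -5.45 against CLP without that library. It stood at 0.0678 and 4.45 RPKM in PD-1+ cells and at 3.95 and 1.84 RPKM in CCR6+ cells. Il2ra stood at 0 and 0.347 RPKM in PD-1+ cells and at 4.10 and 3.02 RPKM in CCR6+ cells. Rxrg, a retinoid receptor gene, stood at 98.1 and 13.4 RPKM in PD-1+ cells, 0.0439 and 0 RPKM in CCR6+ cells, 27.6 and 43.9 RPKM in ChILP and 0.219 and 0.0641 RPKM in CLP. Il17rb, a receptor for interleukin 25, stood at 61.6 and 11.3 RPKM in PD-1+ cells and 1.09 and 2.30 RPKM in CCR6+ cells. Of the cytokine genes of ILC2, Il5 had no read and Il13 had 0.0775 RPKM in 1 CLP library only. Il4 was read in all 8 libraries, at 1.03 to 4.43 RPKM, and Areg reached 1.84 RPKM in PD-1+ replicate 1 and had no read in any number 2 library.

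Of 10 regulators of ILC progenitors, a list that shares Rora and Bcl11b with the one before, 9 rose in PD-1+ against CLP by edgeR, where 4.48% of all genes did. In CCR6+ against CLP 5 of the 10 rose, where 6.59% of all genes did. Id2, the inhibitor of E proteins that marks ILCs, stood at 696 and 226 RPKM in PD-1+ cells, 221 and 164 RPKM in CCR6+ cells, 228 and 327 RPKM in ChILP and 27.3 and 27.9 RPKM in CLP. Zbtb16, the gene of the ILC progenitor factor PLZF, stood at 46.1 and 11.8 RPKM in PD-1+ cells, 0.732 and 1.23 RPKM in CCR6+ cells, 14.0 and 31.3 RPKM in ChILP and 2.28 and 0.855 RPKM in CLP. Like Gata3, both were lower in PD-1+ replicate 2 than in its partner. None of the 10 was called in ChILP against CLP or in PD-1+ against CCR6+, and their medians there were 3.64 and 2.92, beside 0.05 and 0.01 over all genes. Without PD-1+ replicate 2 the median in PD-1+ against CCR6+ was 3.62, beside -0.04 over all genes. In PD-1+ against CLP the median was 4.96 without that library and 4.36 with it. LTi and ILC3 genes had a median of 3.45 in ChILP against CLP and of -0.74 in PD-1+ against CCR6+, which was -0.79 without PD-1+ replicate 2. In PD-1+ against CLP 5 of the 11 tested rose, where 4.48% of all genes did. The median there was 3.70 with PD-1+ replicate 2 and 3.68 without it. In CCR6+ against CLP 8 of the 11 rose, where 6.59% of all genes did, and the 8 include Ccr6, whose product the CCR6+ gate selects.

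None of the genes of partner proteins tested was called between ChILP and CLP or between PD-1+ and CCR6+ cells, and those called against CLP were lower. Of all genes, 7.32% were called in PD-1+ and 11.4% in CCR6+ against CLP, in either direction. The NuRD corepressor, which FOG1 recruits, had 13 genes tested, with a median log2 fold change of -0.02 in ChILP against CLP and 0.21 in PD-1+ against CCR6+, which was 0.40 without PD-1+ replicate 2. Hdac2, a deacetylase of that complex, fell by 1.09 on the log2 scale in PD-1+ against CLP and by 1.13 in CCR6+ against CLP, and Mbd3, Mta3 and Rbbp7 fell in CCR6+ against CLP as well. Hdac2 had -0.85 in PD-1+ against CLP without PD-1+ replicate 2, with an edgeR adjusted p of 0.105. Of 6 LIM adaptor and stabiliser genes, which protect LDB1 complexes or tag them for removal, Ssbp2 fell in CCR6+ against CLP, by 1.23 on the log2 scale, and no other was called. Of 8 stem and progenitor partners tested, Myb fell by 2.06 in PD-1+ and by 2.89 in CCR6+ against CLP on the log2 scale, and Meis1 fell by 2.14 in CCR6+ against CLP. Myb stood at 21.3 and 15.0 RPKM in PD-1+ cells, 8.74 and 10.6 RPKM in CCR6+ cells, 65.7 and 53.8 RPKM in ChILP and 70.8 and 112 RPKM in CLP.

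The E proteins, with which TAL1 and LYL1 pair, had 3 genes tested and none called in any comparison. Tcf3, the most abundant, stood at 61.1 and 53.3 RPKM in PD-1+ cells, 70.1 and 53.0 RPKM in CCR6+ cells, 96.4 and 114 RPKM in ChILP and 107 and 125 RPKM in CLP. Its log2 fold change against CLP was -0.75 in PD-1+ cells, with an edgeR adjusted p of 0.0626, and -0.58 in CCR6+ cells, with an edgeR adjusted p of 0.106.

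Genes of other blood lineages were read beside Gata1 and Gata2 in all populations. Of 16 red cell markers 14 were in the tables used, and all 14 were read in both libraries of every population. Klf1, the red cell factor that GATA1 activates, stood at 230 and 295 RPKM in PD-1+ cells, 375 and 305 RPKM in CCR6+ cells, 396 and 276 RPKM in ChILP and 291 and 254 RPKM in CLP. The summed level of the red cell markers was 29865 to 34767 RPKM in PD-1+ cells, 35462 to 43321 RPKM in CCR6+ cells, 3129 to 9063 RPKM in ChILP and 2900 to 6689 RPKM in CLP. In PD-1+ and CCR6+ cells most of it was the globin gene Hba-a1, at 21938 to 30607 RPKM, which has a near-identical copy and is uncertain as a single gene. In PD-1+ against CLP, 2 of the 14 rose and Car1 fell, where 4.48% of all genes rose. In CCR6+ against CLP 5 rose and Car1 fell, where 6.59% of all genes rose. None was called between ChILP and CLP or between PD-1+ and CCR6+. Without PD-1+ replicate 2 the median of the 14 in PD-1+ against CLP was 0.82 on the log2 scale, beside 1.04 with it, and neither rise was called. Gata1 was lowest in PD-1+ cells, as were the means of the red cell genes Klf1, Epor and Car1, of which Klf1 and Epor overlapped CLP. Hba-a1 was higher in PD-1+ cells than in ChILP and CLP. The red cell genes thus took separate courses, and their relation to the Gata1 level was not tested.

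Platelet lineage markers were highest in ChILP replicate 1, as were Gata1 and Gata2. All 13 were read in every population, and their summed level was 241 to 319 RPKM in PD-1+ cells, 290 to 616 RPKM in CCR6+ cells, 795 to 2422 RPKM in ChILP and 557 to 830 RPKM in CLP. Itga2b, the integrin of platelet precursors, stood at 128 and 37.8 RPKM in ChILP and at 38.0 and 18.6 RPKM in CLP. Mast cell and basophil markers summed to 846 to 2079 RPKM in PD-1+ cells, 1190 to 2380 RPKM in CCR6+ cells, 401 to 1058 RPKM in ChILP and 744 to 788 RPKM in CLP. Of these 12 genes, 8 or 9 were read in both libraries of a population, and Mcpt4 was at 0 in both libraries of every population except PD-1+. Cpa3 rose in PD-1+ against CLP and Fcer1a rose in CCR6+ against CLP, where 4.48% and 6.59% of all genes rose. The part of these cells in the Gata1, Gata2, Tal1 and Lyl1 levels was not tested.

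**Figure D5:**
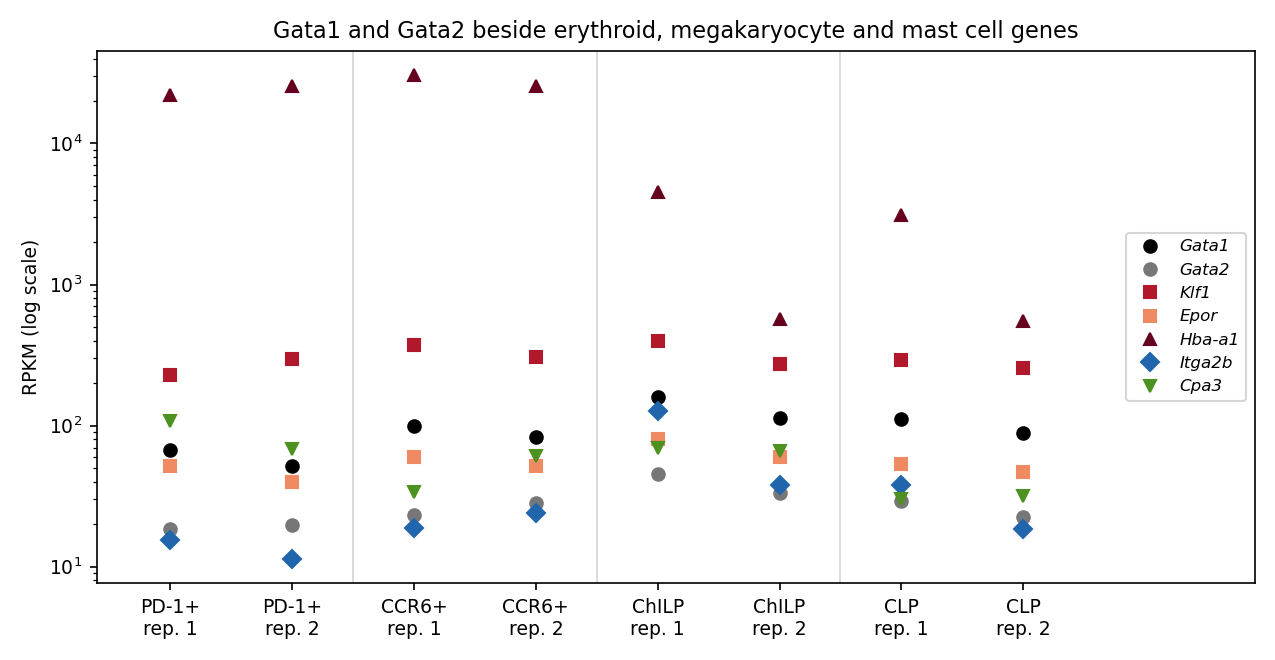
RPKM on a log axis of Gata1 and Gata2 beside red cell (Klf1, Epor, Hba-a1), platelet (Itga2b) and mast cell (Cpa3) genes in each library. Hba-a1 is highest in PD-1+ and CCR6+ cells, while Gata1, Gata2, Klf1, Epor and Itga2b are highest in ChILP replicate 1.

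The remaining lineage markers were set beside Gata3, which T cells also use, and Lmo4. T lineage markers summed to 146 to 320 RPKM in PD-1+ cells, 120 to 125 RPKM in CCR6+ cells, 115 to 172 RPKM in ChILP and 87.4 to 158 RPKM in CLP. NK and ILC1 markers summed to 489 to 997 RPKM in PD-1+ cells, 333 to 352 RPKM in CCR6+ cells, 546 to 624 RPKM in ChILP and 251 to 313 RPKM in CLP. The genes of the T lineage list differed in their course. Cd3e, of the T cell receptor complex, stood at 5.99 and 6.00 RPKM in PD-1+ cells, 7.36 and 8.93 RPKM in CCR6+ cells, 0.61 and 0 RPKM in ChILP and 0.26 and 0 RPKM in CLP. Thy1 stood at 37.0 and 13.3 RPKM in PD-1+ cells, 3.94 and 5.77 RPKM in CCR6+ cells, 8.99 and 21.1 RPKM in ChILP and 0.593 and 0.473 RPKM in CLP. Themis, a T cell signalling gene, stood at 7.05 and 2.78 RPKM in PD-1+ cells, 0 and 0.276 RPKM in CCR6+ cells, 0.880 and 7.96 RPKM in ChILP and 0 and 0.0343 RPKM in CLP. Thy1 and Themis were thus highest in PD-1+ replicate 1 and ChILP replicate 2, as was Gata3, while Cd3e was highest in CCR6+ cells. B lineage markers summed to 296 to 316 RPKM in PD-1+ cells, 355 to 364 RPKM in CCR6+ cells, 99.1 to 158 RPKM in ChILP and 1114 to 1815 RPKM in CLP. Myeloid markers summed to 16419 to 33068 RPKM in PD-1+ cells, 22260 to 35740 RPKM in CCR6+ cells, 9822 to 16227 RPKM in ChILP and 8118 to 11933 RPKM in CLP. None of these genes was called between ChILP and CLP or between PD-1+ and CCR6+ cells. Against CLP, 4 T lineage genes and 5 NK and ILC1 genes of 12 each rose in PD-1+ cells and as many of each in CCR6+ cells, where 4.48% and 6.59% of all genes rose, while Dntt and Rag2 of the B lineage and Mpo and Elane of the myeloid lineage fell in both branches. Without PD-1+ replicate 2 the median log2 fold change in PD-1+ against CLP was 2.31 for T lineage genes, beside 2.26 with it. For NK and ILC1 genes it was 3.38, beside 2.93. The T lineage calls of Cd3g, Cd4 and Themis did not hold without that library. The part of such cells in the Gata3 and Lmo4 levels was not tested.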

How the data were processed

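Libraries from 4 sorted populations, 8 in all, were made by Smart-seq2 and sequenced as 50 bp reads, per the labels' protocols. CASAVA 1.8.4, Bowtie2 2.2.2 and the genome mm9 are listed in the submitters' processing notes without their roles. The sources used here do not give the counter, strand setting or annotation release, and without strand the reads of an antisense partner cannot be told apart. For each library the authors deposited whole-number counts of reads, RPKM values and lengths for 29257 RefSeq transcripts. Isoforms of a gene share reads, so 1 transcript, that with the largest mean count, stood for each of 22878 symbols. There are no molecular identifiers, and floors of 3 counts cover counting error only.

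Counts went into edgeR 4.0.16 under R 4.3.3, with TMM scaling, genes kept by filterByExpr (count minimum 10) and the robust, two-sided quasi-likelihood F test. All 4 groups entered 1 fit, since each has 2 libraries, which left 4 residual degrees of freedom for 13619 genes. The threshold was an adjusted p (Benjamini-Hochberg, over all tested genes) under 0.05. The code was tested on simulated counts. Alternatives were DESeq2 1.42.0 (its size factors and its Wald test), limma 3.58.1 on log2(RPKM + 1) and on log2(RPKM + 0.1) for genes reaching 1 RPKM in 2 libraries, no filter, only the 4 libraries compared, a replicate block, the longest transcript, and leaving out libraries; the list values without PD-1+ replicate 2 were added after the data were seen. The 9 genes and all gene lists were chosen with earlier results of these data known, and some lists share genes. Named were the 9 genes, list genes that were called (some are not reported here), the most abundant of a list (up to 4), the nearest genes by pattern, and, chosen after their values were seen, Il5, Il13, Il4, Areg, Cd3e, Klf1, Itga2b, Epor, Mcpt4, unread relatives of the 9 and the gate genes Flt3 and Pdcd1. Il1rl1 and Il2ra were also named after their values were seen. Promoter windows are RefSeq's on GRCm38.p6, a build other than mm9, and carry no measurement.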

Additional observations from a re-analysis of the deposited data

How the results depend on the processing

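Gata3 and Lmo4 kept their direction in all 4 comparisons under every alternative run, but whether they were called depended on the setting. In ChILP against CLP, the count of genes called was 3 with all libraries, and leaving out single libraries gave 0 to 51. It was 0 with DESeq2 size factors, 263 with the DESeq2 Wald test, 63 with no filter, 59 with only the 4 libraries compared, 55 with limma on log2(RPKM + 1), 46 with limma on log2(RPKM + 0.1) and 43 without the number 2 libraries of the PD-1+ and CCR6+ branches. Of the 9 genes 0 were called, against 2 with DESeq2, with the 4 libraries, with either limma scale and without both number 2 libraries, 1 with no filter, and 0 to 2 without single libraries. In PD-1+ against CCR6+, the count of 0 genes became 128 with DESeq2, 2 with limma on log2(RPKM + 1), 5 without both number 2 libraries and 0 to 36 without single libraries. Of the 9 genes 2 were called with DESeq2 and 0 to 2 without single libraries.

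In PD-1+ against CLP, 997 genes became 2302 with DESeq2, 208 with the 4 libraries, 2148 and 1869 with limma and its pseudocounts of 1 and 0.1, 414 without both number 2 libraries, and 8 to 995 without single libraries. The 2 calls among the 9 genes became 0 to 2 without single libraries. In CCR6+ against CLP, 1549 genes became 2751 with DESeq2, 3116 and 2797 with limma, and 83 to 1930 without single libraries. The 1 call among the 9 became 2 with DESeq2 and with the 4 libraries, 0 with no filter and with limma on log2(RPKM + 1), and 0 to 2 without single libraries. With limma, which applies no TMM scaling, 735 of the 2148 genes in PD-1+ against CLP and 965 of the 3116 in CCR6+ against CLP were higher, beside 610 of 997 and 897 of 1549 with edgeR.

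The replicate numbers pair no samples by the labels, and same-numbered libraries of the 4 comparisons had correlations of their deviations of only 0.09, 0.08, -0.08 and -0.02 over 13619 genes. With a replicate block over all 8 libraries, 0 genes were called in ChILP against CLP, 632 in PD-1+ against CLP, and 0 of the 9 genes in CCR6+ against CLP. With the block in the 4 libraries alone, 112 genes and 2 of the 9 were called in ChILP against CLP, 20 genes and 0 of the 9 in PD-1+ against CLP, and 2 of the 9 in CCR6+ against CLP.

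Signs turned only for genes that were never called. With limma (pseudocounts 1 and 0.1), Lmo2 had -0.0042 and -0.0043 in ChILP against CLP, Ldb1 -0.16 and -0.18 and Tal1 -0.0064 and -0.0070 in PD-1+ against CLP, and in CCR6+ against CLP Gata1 had -0.13 and -0.13, Gata2 -0.0066 and -0.0066, Lmo2 -0.068 and -0.069 and Lyl1 -0.21 and -0.21. In PD-1+ against CCR6+, Zfpm1 had -0.029 with DESeq2 size factors, -0.029 with the DESeq2 Wald test, -0.0089 with the 4 libraries and -0.26 without both number 2 libraries, which put Tal1 at -0.0066 in PD-1+ against CLP. Without single libraries Lmo2 ran from -0.080 to 0.18 in ChILP against CLP, and in PD-1+ against CCR6+ Zfpm1 ran from -0.17 to 0.20, Ldb1 from -0.15 to 1.19 and Tal1 from -0.42 to 0.0070. In PD-1+ against CLP Gata2 ran from -0.40 to 0.12 and Ldb1 from -0.58 to 0.74, and in CCR6+ against CLP Gata1 ran from -0.028 to 0.45. The cause of these shifts was not tested. Where 1 library of a group was left, its spread was taken to equal that of the other groups.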
